A study of Sus scrofa with 12 samples.

Results

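HAS2, TNFAIP6 and VCAN serve the matrix that cumulus cells lay down around the maturing oocyte. HAS2 encodes the enzyme that makes its hyaluronan, and TNFAIP6 and VCAN encode secreted parts of it. The ratios of these 3 genes were read here on arrays of oocytes from which the cumulus had been removed. They were chosen as all array features whose platform gene symbol is HAS2, TNFAIP6 or VCAN. This gave 4 features of 45220, standing for 3 genes of 11913 with a symbol: HAS2 feature 29675, TNFAIP6 feature 19227, VCAN feature 6271 and VCAN feature 31148. The feature numbers are those of the deposited tables.

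Oocytes of crossbred prepubertal gilts were matured in vitro for 44 h in TCM199 with porcine follicular fluid, LH, FSH and EGF, and were then denuded with hyaluronidase and by aspiration through a glass pipette. There were 4 groups of 3 arrays each: SM oocytes without an added compound (SM control), SM oocytes with GDNF (glial cell line-derived neurotrophic factor, a secreted growth factor), LG oocytes without an added compound (LG control) and LG oocytes with GDNF. The labels do not spell out SM and LG, and the dose of GDNF is not given in the sources used here. Each array set 1 sample of oocytes against a common reference pooled from oocytes of all groups, and each of 3 slides held 1 array of every group. The samples of slide 1 were labelled with Cy5 and those of slides 2 and 3 with Cy3, so that dye and slide cannot be told apart.

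Every value below is the deposited log ratio of an array, taken as log2. The channel in the numerator is not given in the sources used here, and it could not be settled whether the authors had turned the arrays of the opposite dye. A higher or lower ratio is therefore given as deposited, with no statement on which oocytes held more mRNA. If the ratios are Cy5 over Cy3, the signs on slides 2 and 3 turn, and that reading is given beside the comparisons. A ratio carries no level, so whether any of these genes was above background in denuded oocytes, and whether the labelled cell type shows its own markers, cannot be read from these values. In pooled RNA, fewer attached cumulus cells and less RNA per cell cannot be told apart.

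During maturation in response to gonadotropins, EGF-like ligands and oocyte-secreted factors, cumulus cells build a hyaluronan-rich matrix and the cumulus expands. HAS2, hyaluronan synthase, is a membrane enzyme that makes the hyaluronan chain and extrudes it. TNFAIP6 encodes TSG-6, which transfers the heavy chains of inter-alpha-trypsin inhibitor from blood or follicular fluid to hyaluronan and so helps to cross-link it, and VCAN encodes versican, a large proteoglycan that binds hyaluronan and is cleaved by the protease ADAMTS1. These genes are known as products of the cumulus and granulosa cells, and the hyaluronidase used for denuding digests the hyaluronan backbone of the matrix.

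The ratio of HAS2 feature 29675 was above 0 on 11 of 12 arrays and varied little except on 1 array. On slide 1 it was 0.42 in SM control 1, 0.55 in SM GDNF 1, 0.26 in LG control 1 and 0.40 in LG GDNF 1. On slide 2 it was 0.57 in SM control 2, 0.56 in SM GDNF 3, 0.94 in LG control 3 and 0.42 in LG GDNF 2. On slide 3 it was 0.62 in SM control 3, 0.69 in SM GDNF 2, 0.27 in LG control 2 and -0.73 in LG GDNF 3. LG GDNF 3 was the only array below 0, and the 3 slides otherwise overlapped.

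The ratio of TNFAIP6 feature 19227 separated slide 2 from the other slides. On slide 1 it was 0.13 in SM control 1, 0.41 in SM GDNF 1, -0.42 in LG control 1 and 0.18 in LG GDNF 1. On slide 2 it was 2.19 in SM control 2, 2.21 in SM GDNF 3, 2.26 in LG control 3 and 1.88 in LG GDNF 2. On slide 3 it was 1.86 in SM control 3, 1.36 in SM GDNF 2, -0.47 in LG control 2 and -2.08 in LG GDNF 3. The 4 arrays of slide 2 lay close together and above all others, whereas on slide 3 both SM arrays were high and both LG arrays were below 0.

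VCAN feature 6271 was likewise highest on slide 2. Its ratio on slide 1 was 0.53 in SM control 1, 0.45 in SM GDNF 1, -0.53 in LG control 1 and 0.39 in LG GDNF 1. On slide 2 it was 1.59 in SM control 2, 1.17 in SM GDNF 3, 2.13 in LG control 3 and 1.49 in LG GDNF 2. On slide 3 it was 1.02 in SM control 3, 1.12 in SM GDNF 2, -0.70 in LG control 2 and -1.79 in LG GDNF 3. As for TNFAIP6, LG control 1 was the only array of slide 1 below 0 and both LG arrays of slide 3 were below both SM arrays.

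VCAN feature 31148, which carries the same gene symbol but no transcript identifier, followed another order. Its ratio on slide 1 was 0.13 in SM control 1, 0.33 in SM GDNF 1, 0.95 in LG control 1 and 0.12 in LG GDNF 1. On slide 2 it was -0.05 in SM control 2, 0.70 in SM GDNF 3, 0.98 in LG control 3 and -0.12 in LG GDNF 2. On slide 3 it was 0.52 in SM control 3, -0.17 in SM GDNF 2, 0.85 in LG control 2 and -1.23 in LG GDNF 3. As deposited, the LG control array was the highest and the LG GDNF array the lowest on each of the 3 slides. The LG GDNF array was only narrowly the lowest on slides 1 and 2, where SM control lay just above it. In the turned reading the order is the reverse on slides 2 and 3. The share of all features with such an order on every slide was not computed. On slides 1 and 3 the LG control array was below 0 for feature 6271 and the highest for feature 31148, whereas on slide 2 it was the highest for both features, and LG GDNF 3 was the lowest array of slide 3 for both.

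**Figure D1:**
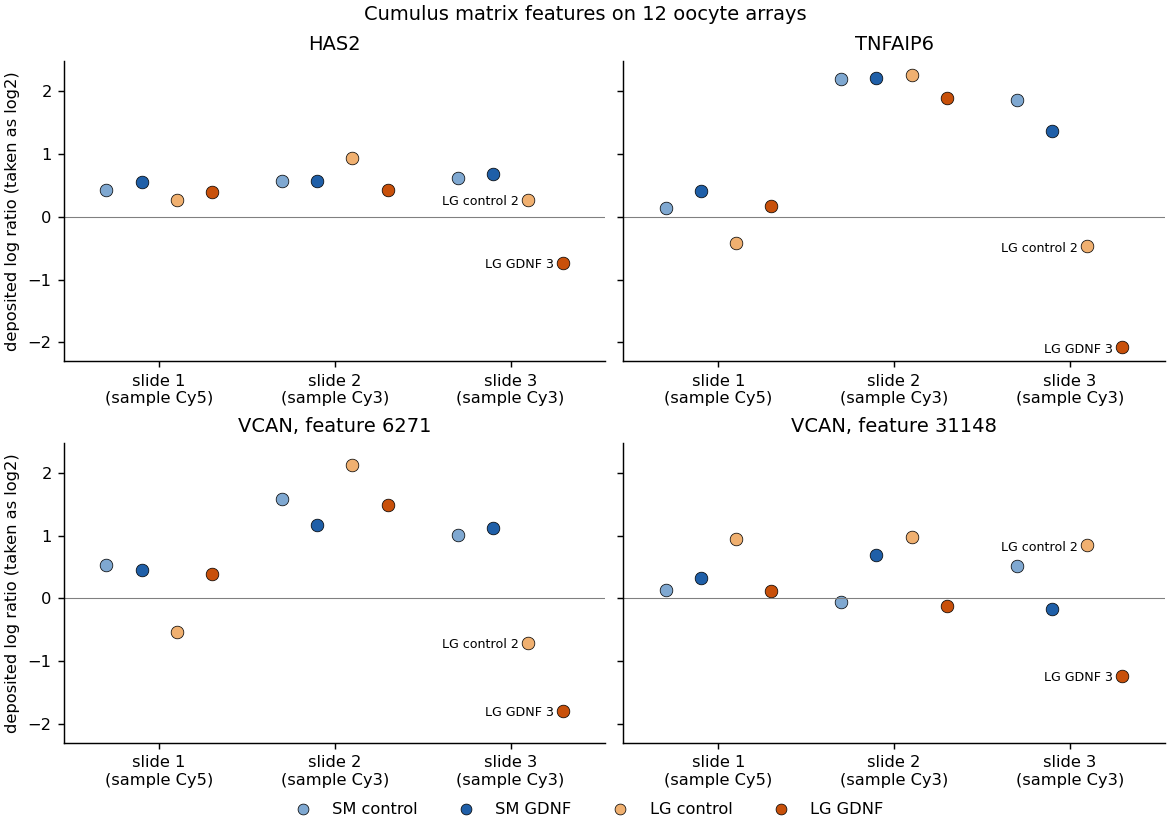
Deposited log ratios (vertical axes, taken as log2) of the 4 features on the 12 arrays, set out by slide along the horizontal axes and coloured by group; each point is 1 array. LG GDNF 3, on slide 3, is the lowest point in every panel, and the slide 2 arrays lie apart from the other slides for TNFAIP6 and for VCAN feature 6271 only.

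LG GDNF 3 was the lowest of the 12 arrays for all 4 features. This array was the lowest for 9.28% and the highest for 7.10% of all 45220 features. For TNFAIP6 and VCAN feature 6271, slide 2 overlapped neither slide 1 (non-overlap held for 6.48% of all features) nor slide 3 (3.18%), and slides 1 and 3 overlapped for all 4 features (non-overlap 4.55%), while HAS2 and VCAN feature 31148 overlapped between all slides. In the turned reading slide 2 would be the lowest slide for TNFAIP6 and VCAN feature 6271, and LG GDNF 3 would be the highest array of slide 3 for all 4 features.

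The members differed in how much they varied. The ratio of TNFAIP6 ranged over 4.35 and that of VCAN feature 6271 over 3.92 on the log2 scale, against 2.22 for VCAN feature 31148 and 1.67 for HAS2. The median range of all features was 0.912. The standard deviation over the 12 arrays stood at the 99.0th percentile of all features for TNFAIP6, at the 97.9th for VCAN feature 6271, at the 90.8th for VCAN feature 31148 and at the 77.8th for HAS2. Slide accounted for 51.5% of the variance of TNFAIP6 and 47.4% of that of VCAN feature 6271, and group for 19.9% and 15.5%. For VCAN feature 31148 the shares were 9.33% for slide and 62.6% for group, and for HAS2 they were 18.7% and 33.7%. Over all genes the corresponding shares were 24.1% and 25.6%. These shares depend on the direction of the ratios. In the turned reading slide took 53.6% for TNFAIP6, 53.2% for VCAN feature 6271, 59.4% for HAS2 and 22.7% for VCAN feature 31148 (48.8% over all genes). Group then took 15.9%, 11.5%, 16.2% and 20.5% (15.4% over all genes), so that the large group share of VCAN feature 31148 holds only for the ratios as deposited.

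The design asks first whether GDNF changed these genes within a class of oocytes. In limma with group and slide as terms, adjusted over all genes, no gene passed an adjusted p of 0.05 in any comparison (0% of 11913 genes, and 0% of 45220 features), the 3 members included. At an unadjusted p under 0.05 the counts were 279 genes (2.34%) for GDNF against control in SM, 902 (7.57%) in LG, 846 (7.10%) for LG against SM without GDNF, 287 (2.41%) for LG against SM with GDNF and 499 (4.19%) for the difference between the classes in the response to GDNF. The labels do not say that pools came from separate animals, so these p-values measure the spread between the pools of a group. With 3 arrays per group the precision is limited, and it was lower for TNFAIP6 than for most genes: its difference between groups had a standard error of 0.67, while the median over all genes was 0.196.

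In SM oocytes the members had nearly the same mean ratio with and without GDNF. HAS2 was 0.60 ± 0.08 with GDNF and 0.54 ± 0.10 without it (SD, n = 3 each). TNFAIP6 was 1.33 ± 0.90 with GDNF and 1.40 ± 1.10 without it. VCAN feature 6271 was 0.91 ± 0.41 against 1.04 ± 0.53, and VCAN feature 31148 was 0.28 ± 0.44 against 0.20 ± 0.29. All of these differences were smaller than the spread between arrays, and in none of the 4 features did the groups lie apart (7.19% of all features), was the side the same on 3 of 3 slides (18.8%) or was the unadjusted p under 0.05 (2.4%). As deposited the differences were 0.06 for HAS2, -0.07 for TNFAIP6, -0.13 for VCAN feature 6271 and 0.08 for VCAN feature 31148, and in the turned reading they were 0.023, 0.25, 0.077 and 0.051.

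In LG oocytes the mean ratios with GDNF were lower as deposited, with a wide spread. HAS2 was 0.03 ± 0.66 with GDNF and 0.49 ± 0.39 without it (SD, n = 3 each), a difference of -0.46 (SE 0.28, adjusted p = 0.743 over features in limma). TNFAIP6 was -0.01 ± 1.99 against 0.46 ± 1.56, a difference of -0.46 (SE 0.66, adjusted p = 0.910). VCAN feature 6271 was 0.03 ± 1.67 against 0.30 ± 1.59, a difference of -0.27 (SE 0.61, adjusted p = 0.954). For these 3 features the difference was above 0 on slide 1 (0.14, 0.60 and 0.92) and below 0 on slides 2 and 3. The turned reading therefore puts all 3 slides on one side, with mean differences of 0.55, 0.86 and 0.88. The share of all features that lie on one side in that reading was not computed. Without LG GDNF 3 the differences became -0.09 for HAS2, 0.50 for TNFAIP6 and 0.51 for VCAN feature 6271.

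As deposited, VCAN feature 31148 had the largest difference of the 4 features in LG oocytes, and here the arrays of the groups did not overlap. Its ratio was -0.41 ± 0.72 with GDNF and 0.93 ± 0.07 without it (SD, n = 3 each), a difference of -1.34 (SE 0.32, unadjusted p = 0.0021, adjusted p = 0.659 in limma over 45220 features). The difference was -0.83 on slide 1, -1.10 on slide 2 and -2.08 on slide 3. It was the only 1 of the 4 features on the same side on 3 of 3 slides, as 29.9% of all features were. Non-overlap of the groups held for 10.6% of all features and an unadjusted p under 0.05 for 7.52%. Without LG GDNF 3 the difference was -0.96, and in the turned reading, where slides 2 and 3 oppose slide 1, it was 0.78 (adjusted p = 1), less than for TNFAIP6 and VCAN feature 6271.

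The design next compares the classes of oocyte. Without GDNF, LG and SM differed by -0.05 for HAS2 (SE 0.28), by -0.94 for TNFAIP6 (SE 0.66) and by -0.74 for VCAN feature 6271 (SE 0.61), each with adjusted p above 0.8 in limma. For each of these features 1 slide was on the other side from the rest, and in the turned reading the differences were -0.060, 0.57 and 0.041. VCAN feature 31148 was higher in LG than in SM on all 3 slides, by 0.82, 1.03 and 0.32, with a mean difference of 0.72 (SE 0.32, unadjusted p = 0.0478, adjusted p = 0.657). Of all features, 26.6% kept their side on 3 of 3 slides and 7.55% had an unadjusted p under 0.05. Its groups did not overlap, as held for 9.71% of all features, and the mean difference was -0.18 in the turned reading.

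With GDNF, the ratios of LG oocytes were below those of SM oocytes on 3 of 3 slides for HAS2, TNFAIP6 and VCAN feature 31148, as deposited. One side, either way, was kept on all slides by 19.1% of all features. The differences were -0.57 for HAS2 (SE 0.28), -1.33 for TNFAIP6 (SE 0.66) and -0.69 for VCAN feature 31148 (SE 0.32), each with adjusted p = 1 in limma and an unadjusted p above 0.05 (2.38% of all features were under it). VCAN feature 6271 differed by -0.88 (SE 0.61, adjusted p = 1), with slide 2 on the other side. The 3 LG arrays with GDNF did not overlap the 3 SM arrays with GDNF for HAS2, which held for 7.15% of all features, and they overlapped for the other 3 features. For HAS2, TNFAIP6 and VCAN feature 6271 slide 3 set the size: without LG GDNF 3 the differences were -0.20, -0.37 and -0.11. VCAN feature 31148 differed by -0.21, -0.82 and -1.06 on slides 1, 2 and 3, and by -0.32 without LG GDNF 3. In the turned reading the differences were 0.47 for HAS2, 1.18 for TNFAIP6, 0.85 for VCAN feature 6271 and 0.56 for VCAN feature 31148.

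The class difference in the response to GDNF was -0.52 for HAS2 (SE 0.39), -0.40 for TNFAIP6 (SE 0.94) and -0.14 for VCAN feature 6271 (SE 0.86). It was -1.42 for VCAN feature 31148 (SE 0.45, unadjusted p = 0.0111, adjusted p = 0.985 in limma), with values of -1.03, -1.85 and -1.38 on the slides. An unadjusted p under 0.05 was reached by 4.13% of all features and the same side on 3 of 3 slides by 21.1%. In the turned reading these values were 0.53, 0.61, 0.80 and 0.73, all of the other sign. The test for any difference among the 4 groups gave an adjusted p of 0.977 for each of the 4 features. Its unadjusted p was 0.0154 for VCAN feature 31148 and above 0.05 for the others in limma, and 4.18% of all features (4.02% of genes) were under 0.05. The averages over both versican features, used for the gene in the fit over 11913 genes, hide that the features differ: VCAN as a gene differed by -0.80 for GDNF against control in LG and by -0.01 for LG against SM without GDNF.

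**Figure D2:**
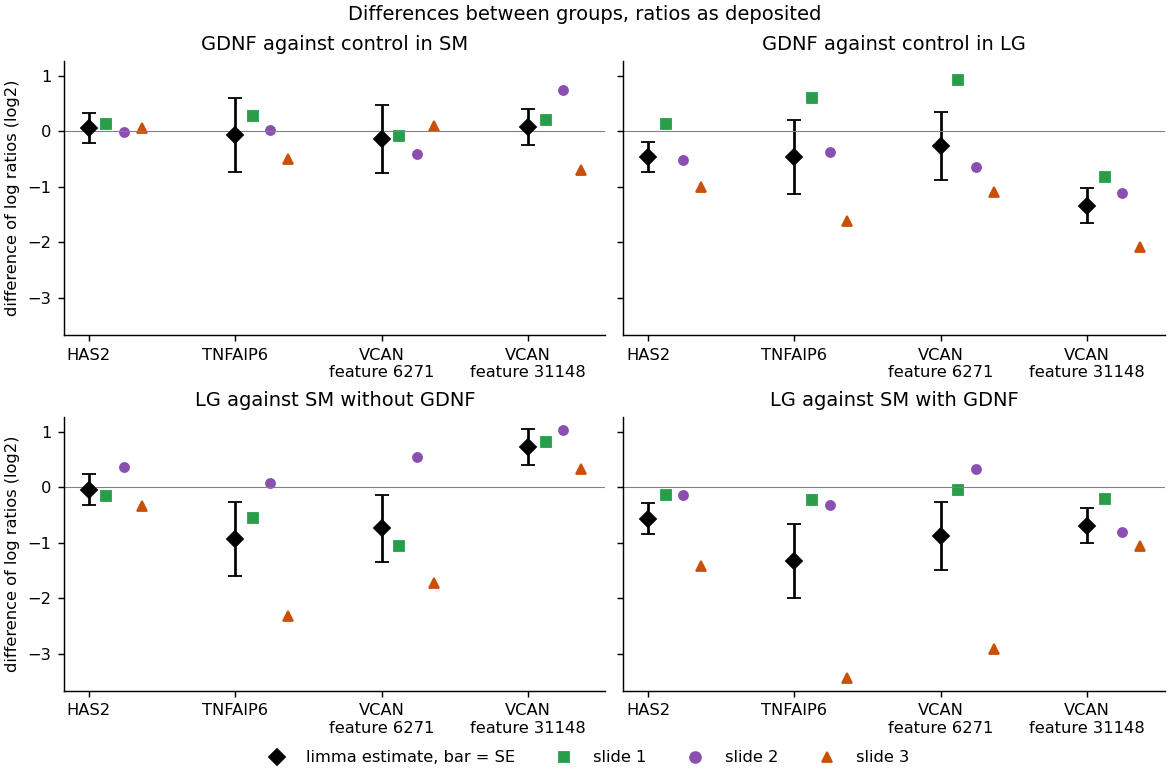
Differences between groups in the deposited log ratio (vertical axes, log2) of the 4 features in the 4 comparisons of groups; coloured points are the differences within each slide, and black diamonds with bars are the limma estimate and its standard error. VCAN feature 31148 keeps 1 side on all slides for GDNF against control in LG (-1.34), whereas the other features have slide 1 opposite to slides 2 and 3 there.

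Whether the members moved together from array to array can be asked with Pearson's r without settling the direction. Turning the sign of a whole slide leaves Pearson's r of values with slide means removed as it is. This does not hold for Spearman's rho, which ranks the 12 arrays together, so rho is given for the ratios as deposited only. HAS2 and TNFAIP6 moved together with Pearson's r of 0.913 over the 12 arrays (exact permutation within slides, two-sided p = 0.0013, adjusted p = 0.0336 over 30 relations; Spearman's rho 0.797, p = 0.00123, adjusted p = 0.0206). HAS2 and VCAN feature 6271 had an r of 0.908 (exact permutation p = 0.00224, adjusted p = 0.0336; rho 0.853, p = 0.00137, adjusted p = 0.0206). Leaving out LG GDNF 3 and SM GDNF 2, the arrays farthest from the median of HAS2, r was 0.684 for the first pair (exact permutation p = 0.0139) and 0.803 for the second (p = 0.0252). Within the slides, r was 0.964, 0.740 and 0.943 for HAS2 with TNFAIP6, and 0.827, 0.813 and 0.937 for HAS2 with VCAN feature 6271, with 4 arrays each.

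These calls were lost on most single omissions. Leaving out any 1 of 9 of the 12 arrays put the adjusted p of both pairs above 0.05. Over single omissions r lay between 0.715 and 0.954 for HAS2 with TNFAIP6 and between 0.832 and 0.959 for HAS2 with VCAN feature 6271. Both lowest values were those without LG GDNF 3. Leaving out an array also leaves fewer orders within slides, which raises the smallest p that can be reached. With both slide 3 arrays of LG left out (LG GDNF 3 and LG control 2), r was 0.559 for HAS2 with TNFAIP6 and 0.752 for HAS2 with VCAN feature 6271 (adjusted p = 0.725 for both).

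TNFAIP6 and VCAN feature 6271 had an r of 0.944 (exact permutation p = 0.00904, adjusted p = 0.0712; rho 0.895, p = 0.0146, adjusted p = 0.146), which missed the threshold after adjustment. Without LG GDNF 3 and SM control 3 it was 0.895 (exact permutation p = 0.0451). It passed without SM GDNF 1 (r = 0.944, exact permutation, adjusted p = 0.0445). The relation was close on slides 1 and 3 (r = 0.924 and 0.988) and loose on slide 2 (r = 0.305), where TNFAIP6 hardly varied.

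The versican features did not track each other. Their r was 0.309 (exact permutation p = 0.569, adjusted p = 0.656; rho 0.140, p = 0.748, adjusted p = 0.863), and within slides it was -0.965, 0.371 and 0.500. Without LG GDNF 3 and SM GDNF 2 it was -0.305. VCAN feature 31148 had an r of 0.647 with HAS2 (adjusted p = 0.344) and of 0.440 with TNFAIP6 (adjusted p = 0.586, exact permutation tests), and these fell to 0.251 and -0.536 without the 2 arrays farthest out. Which transcript part each versican feature reads was not analysed here.

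**Figure D3:**
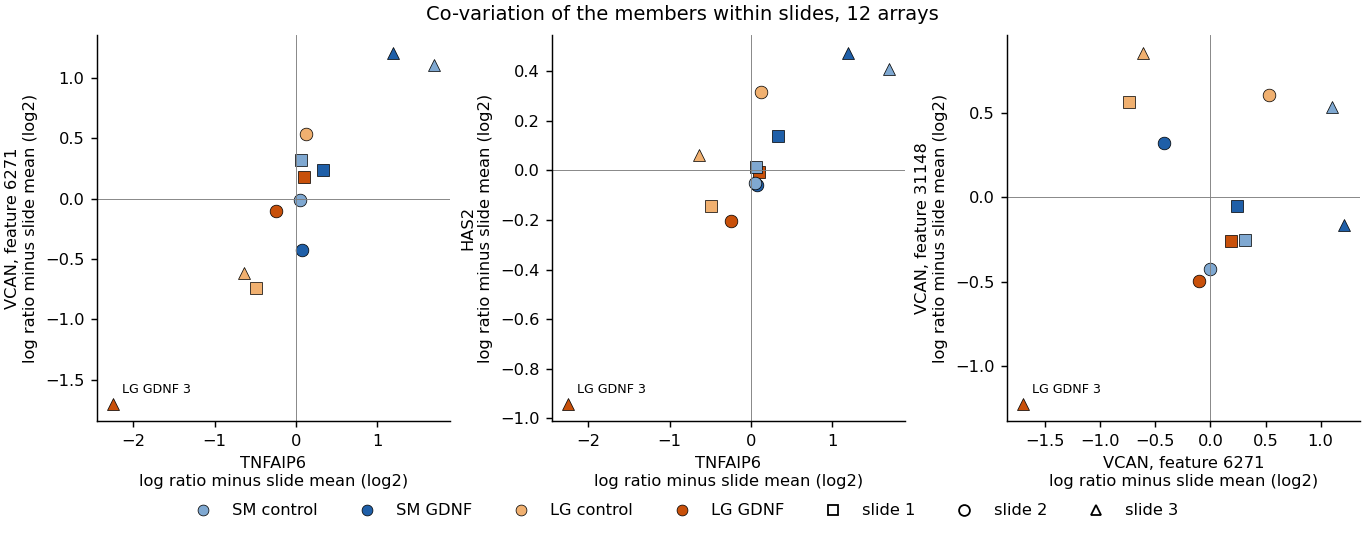
Log ratios minus the slide mean (both axes, log2) for TNFAIP6 against VCAN feature 6271, TNFAIP6 against HAS2 and VCAN feature 6271 against VCAN feature 31148; each point is 1 of 12 arrays, coloured by group and shaped by slide. The first panels show a rising cloud with LG GDNF 3 at its lower end (r = 0.944 and 0.913), and the last shows no common slope (r = 0.309).

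The genes whose ratios were most like each member were named by Pearson's r over the 12 arrays with slide means removed, as a description. For VCAN feature 6271 the first 5 were RPL4 (0.989), RPS18 (0.987) and RPL19 (0.980), which encode ribosomal proteins, then DKK3 (0.980), a secreted protein of the Dickkopf family, and ADAMTS1 (0.979), the protease that cleaves versican. The r of ADAMTS1 with VCAN feature 6271 was 0.971, 0.991 and 0.982 within the slides. It was 0.988 without LG GDNF 3 and 0.967 without both slide 3 arrays of LG. Without both of these arrays r was 0.944 for RPL4, 0.952 for RPS18, 0.899 for RPL19 and 0.920 for DKK3. The ranking of genes was not computed again without these arrays.

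For TNFAIP6 the most similar genes were MRO (0.963), RPS23 (0.961), RPL4 (0.960), RPS12 (0.960) and RPS18 (0.948), so that RPL4 and RPS18 appeared for both members. Without both slide 3 arrays of LG, r was 0.699, 0.687, 0.617, 0.823 and 0.780 in this order. For HAS2 the most similar genes were HTRA2 (0.983), a mitochondrial serine protease, RPS25 (0.963), POLR2I (0.962), a subunit of RNA polymerase II, the transcription factor MYC (0.960) and POLR2F (0.959), another subunit of that polymerase. Without both slide 3 arrays of LG, r with HAS2 was 0.882, 0.940, 0.699, 0.639 and 0.784. On slide 1 it was 0.62, 0.81, -0.17, 0.31 and 0.55. VCAN feature 31148 shared none of the genes named for the other features. Its most similar genes were FBXO38 (0.958), an F-box protein, the actin cross-linker ACTN1 (0.943), the tropomyosin TPM4 (0.916), COG1 (0.915) of the Golgi complex, and the acetyltransferase EP300 (0.913).

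The other genes of the hyaluronan matrix (29 of a list of 35 were measured) did not follow the members as a group. Their median r was 0.106 with HAS2, 0.122 with TNFAIP6, 0.159 with VCAN feature 6271 and 0.174 with VCAN feature 31148, against 0.00132, 0.00699, 0.000637 and 0.0428 over all genes. With HAS2, with TNFAIP6 and with VCAN feature 6271, the same 2 of 29 had an r above 0.8, as did 1.92%, 2.07% and 2.10% of all genes. They were ADAMTS1 (0.841, 0.908 and 0.979) and HAPLN1 (0.937, 0.802 and 0.867), the link protein that holds versican on hyaluronan, which was named after its values were seen. Without LG GDNF 3, HAPLN1 had an r of 0.852 with HAS2, 0.456 with TNFAIP6 and 0.691 with VCAN feature 6271.

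ADAMTS1 shared the pattern of values as well. Its ratio lay between -0.46 and 0.45 on slide 1 and between 0.82 and 1.47 on slide 2, and on slide 3 it was 0.63 in SM control 3, 0.87 in SM GDNF 2, -0.78 in LG control 2 and -1.13 in LG GDNF 3. Like TNFAIP6 and VCAN feature 6271, it was below 0 in LG control 1 and in both LG arrays of slide 3. HAPLN1 was -1.40 in LG GDNF 3 and -0.04 in LG control 2, against 0.25 in SM control 3 and 1.13 in SM GDNF 2. Both LG arrays of slide 3 were thus below both SM arrays, but LG control 2 was near 0.

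The remaining partners had an r within the 5th to 95th percentile of all genes, except for 1 gene with a lower r for each feature. It was HYAL3, a hyaluronidase gene, for HAS2, the matrix glycoprotein gene TNC for TNFAIP6 and for VCAN feature 6271, and HMMR, a hyaluronan receptor, for VCAN feature 31148. Some were moderately similar: the r with HAS2, TNFAIP6 and VCAN feature 6271 was 0.583, 0.537 and 0.611 for UAP1, an enzyme of hyaluronan precursor synthesis. It was 0.593, 0.546 and 0.531 for ITIH3, another heavy chain gene, and 0.542, 0.650 and 0.470 for the protease ADAMTS9. The r with HAS2 was 0.0467 for UAP1, 0.141 for ITIH3 and 0.181 for ADAMTS9 without LG GDNF 3. PTX3, the pentraxin that helps to cross-link the heavy chains, had an r of 0.383 with HAS2, 0.501 with TNFAIP6 and 0.494 with VCAN feature 6271, and its ratio lay between 0.01 and 0.40 on all 12 arrays. CD44, a hyaluronan receptor, had an r of 0.456 with HAS2 and 0.359 with TNFAIP6. ITIH2, a heavy chain of the inter-alpha-trypsin inhibitor, had an r of -0.115 with HAS2 and -0.0537 with TNFAIP6. HAS1, another hyaluronan synthase, had an r of -0.0817 with HAS2. Of the 6 list genes with the smallest p for any group difference (UGP2, HMMR, HYAL1, HAS1, ADAMTS15 and HYAL2), none passed after adjustment (adjusted p = 0.985 in limma for each).

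In the comparisons between groups, 0 of the 29 matrix partners passed an adjusted p of 0.05 in limma. For GDNF against control in LG, 13 had a difference above 0 and 16 below, with a median of -0.03, beside -0.02 over all genes. For LG against SM with GDNF, again 13 were above 0 and 16 below, with a median of -0.05, beside 0.00105 over all genes. At an unadjusted p under 0.05, 2 of the 29 partners (6.9%) passed for GDNF against control in LG, beside 7.57% of all genes. For LG against SM without GDNF and for the class difference in the response 2 passed each, beside 7.10% and 4.19% of all genes. In the remaining comparisons 0 passed, beside 2.34% of all genes for GDNF against control in SM and 2.41% for LG against SM with GDNF.

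The signalling genes upstream of expansion, of which 21 of 29 were measured, had a median r between -0.134 and 0.101 with the 4 features. None exceeded 0.8, and 1 gene lay beyond the 5th to 95th percentile of all genes for each of HAS2, TNFAIP6 and VCAN feature 6271. It was ADAM17, the protease that releases EGF-like ligands, with an r of -0.538, -0.715 and -0.746 (-0.590, -0.819 and -0.789 without LG GDNF 3). With VCAN feature 31148, SMAD3, a mediator of oocyte-secreted TGF-beta family signals, had an r of 0.767 and the receptor gene ACVR1B one of -0.734. PTGS2, which makes prostaglandins for expansion, had an r of 0.0877 with HAS2 and 0.138 with TNFAIP6, and none of the 21 passed an adjusted p of 0.05 in limma in any comparison. The cytokine gene IL6 had the smallest p of this list for any group difference (unadjusted p = 0.0343, adjusted p = 0.985 in limma).

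To compare arrays for cumulus RNA carried over with the oocytes, the members were set beside lists of markers. The list of cumulus and granulosa markers (25 of 34 measured) had a median log ratio of -0.217 in LG GDNF 3 and -0.110 in LG control 2. On the other 10 arrays it lay between -0.00839 and 0.232. These were also the 2 arrays with the highest medians of the oocyte list (25 of 33 measured), 0.271 in LG GDNF 3 and 0.314 in LG control 2, against -0.274 to 0.142 elsewhere. Arrays that stood low for HAS2, TNFAIP6 and VCAN feature 6271 within slide 3 thus had low medians of the cumulus and granulosa markers and high medians of the oocyte genes.

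The ribosomal protein genes (52 of 52 measured) moved in the same way and over a wider range. Their median log ratio was -1.35 in LG GDNF 3 and -0.53 in LG control 2, 0.28 and 0.34 in the SM arrays of slide 3, 0.37 to 0.79 on slide 2 and -0.19 to 0.10 on slide 1. The median of theca, stroma and blood markers (19 of 25 measured) lay between -0.110 and 0.102 on all arrays, with LG GDNF 3 at -0.07 and LG control 2 at 0.05. On LG control 2 the ratios of all features also had the widest spread (SD 0.871, against 0.454 to 0.547 on the other arrays), and 489 features exceeded 4, against at most 9 elsewhere.

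**Figure D4:**
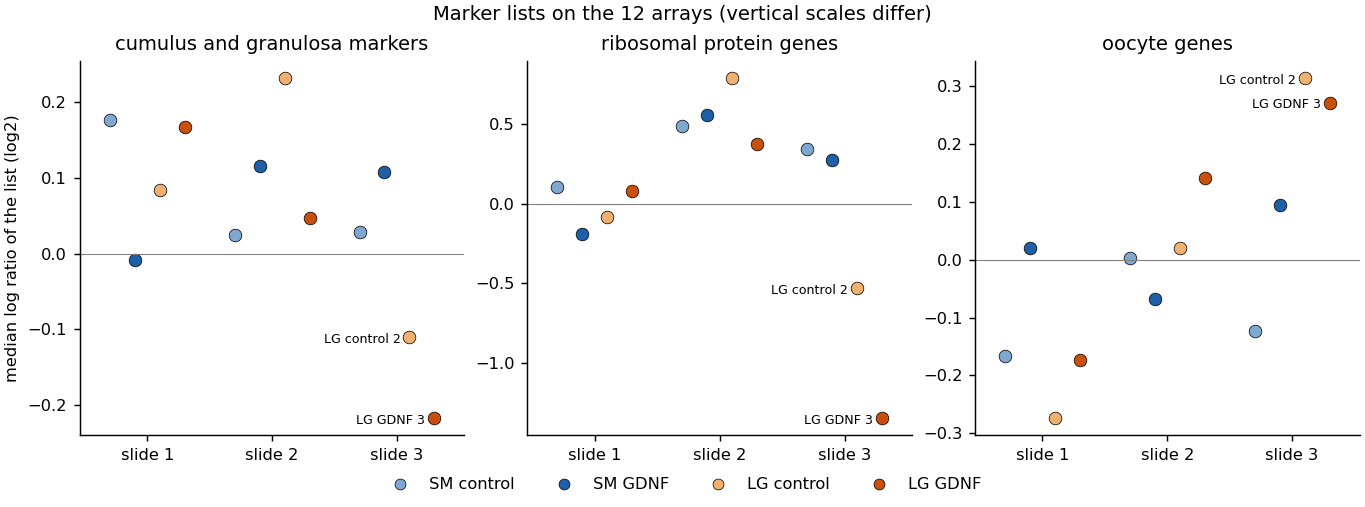
Median log ratio (vertical axes, log2) of the genes of each marker list on the 12 arrays, set out by slide along the horizontal axes and coloured by group; vertical scales differ between panels. On slide 3 both LG arrays are low for the ribosomal protein and the cumulus and granulosa lists and high for the oocyte list.

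Relations with the list medians were tested in the same family of 30. With the ribosomal protein list, r was 0.927 for HAS2, 0.951 for TNFAIP6 and 0.925 for VCAN feature 6271 (exact permutation within slides, adjusted p = 0.0712, 0.0884 and 0.0712; rho 0.685, 0.804 and 0.825). With the cumulus and granulosa list, r was 0.752 for HAS2, 0.701 for TNFAIP6 and 0.776 for VCAN feature 6271 (adjusted p = 0.0839, 0.249 and 0.105; rho 0.629, 0.650 and 0.741). None of these passed the threshold after adjustment. Without SM GDNF 1, however, the ribosomal relations of HAS2, TNFAIP6 and VCAN feature 6271 passed (r = 0.962, 0.983 and 0.952, exact permutation, adjusted p = 0.0195, 0.0174 and 0.0236), as did the cumulus and granulosa relations of HAS2 and VCAN feature 6271 (r = 0.882 and 0.892, adjusted p = 0.0195 and 0.0236). On slide 1 r with the ribosomal list was -0.277 for HAS2, -0.0484 for TNFAIP6 and 0.312 for VCAN feature 6271. On slide 3 it was 0.967, 0.9955 and 0.992. Leaving out the 2 arrays farthest out in each member, it was 0.69, 0.80 and 0.80 (exact permutation p = 0.0929, 0.287 and 0.135). Without the same arrays, r with the cumulus and granulosa list was 0.560, 0.536 and 0.537 (exact permutation p = 0.160, 0.443 and 0.201). On slide 1 it was -0.407 for HAS2, -0.184 for TNFAIP6 and 0.178 for VCAN feature 6271, whereas on slide 3 it was 0.920, 0.942 and 0.981. With the oocyte list r was -0.417, -0.600 and -0.457 (adjusted p = 0.581, 0.419 and 0.525). Within the slides its sign was not the same: r was 0.97, 0.89 and 0.67 on slide 1. It was -0.33, -0.85 and 0.24 on slide 2, and -0.62, -0.84 and -0.80 on slide 3. The list of theca, stroma and blood markers followed the members nearly as closely as the cumulus list, with r of 0.694, 0.677 and 0.639 (adjusted p = 0.254, 0.249 and 0.254; rho 0.455, 0.441 and 0.462). On slide 3 these were 0.991, 0.958 and 0.932, and without the 2 arrays farthest out they were 0.0526, 0.0198 and 0.186. The difference in r between these lists was not tested.

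Single genes of the cumulus and granulosa list did not move as one. Its median r was 0.232 with HAS2, 0.186 with TNFAIP6 and 0.209 with VCAN feature 6271, close to the 0.195, 0.129 and 0.170 of the theca, stroma and blood list, while for the ribosomal list it was 0.758, 0.752 and 0.760. Of the 25 markers, 8, 6 and 7 had an r below 0, among them AMH, the anti-Müllerian hormone of granulosa cells (-0.510, -0.525 and -0.463). Of the 25 cumulus and granulosa markers, 5 had an r above 0.8 with TNFAIP6, namely HSD11B1, HSD3B1, IGFBP5, INHA and VIM, 2 with VCAN feature 6271 and 1 with HAS2, beside 2.07%, 2.10% and 1.92% of all genes. Without LG GDNF 3 the counts were 0 with TNFAIP6, 1 with VCAN feature 6271 and 0 with HAS2. Of the 52 ribosomal protein genes, 21 exceeded 0.8 with HAS2, 19 with TNFAIP6 and 19 with VCAN feature 6271, and 5, 12 and 15 did so without that array. VCAN feature 31148 exceeded 0.8 with 3 ribosomal protein genes and 2 cumulus and granulosa markers, HSD17B1 and NR5A2, beside 0.865% of all genes.

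The 4 most variable cumulus and granulosa markers were GSTA1, VIM, INHA and NR5A2. VIM, vimentin, was -2.11 in LG GDNF 3 and -1.64 in LG control 2 and had an r of 0.931 with VCAN feature 6271 (0.914 without LG GDNF 3). INHA, the inhibin alpha subunit, was -2.01 and -1.14 on these arrays and had an r of 0.824 with TNFAIP6 (0.637 without LG GDNF 3). GSTA1, a glutathione transferase, was -1.89 and -1.41 there. These genes were chosen for a wide range, which the same arrays help to set. Of all 25 markers, 12 (48.0%) were below 0 on both arrays and 5 above 0 on both, beside 36.2% and 31.5% of all genes. NR5A2, a nuclear receptor of granulosa cells, was -1.09 in LG GDNF 3 and 0.68 in LG control 2, and it was among the markers that followed VCAN feature 31148.

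The 4 most variable oocyte genes were MOS, ZAR1, GDF9 and BTG4. MOS, the kinase that maintains the metaphase arrest of the egg, was 2.30 in LG GDNF 3 and 3.52 in LG control 2, and ZAR1, a maternal-effect gene, was 1.47 and 2.43. GDF9, a growth factor that the oocyte secretes and that induces HAS2 in mouse cumulus cells, was 1.15 and 2.84 there. BTG4, an adaptor of maternal mRNA deadenylation, was 0.24 and -1.38. Of all 25 oocyte genes, 12 (48.0%) were above 0 on both arrays and 2 below 0 on both, while 41 of 52 ribosomal protein genes (78.8%), 17 of 29 matrix partners (58.6%) and 6 of 19 theca, stroma and blood markers (31.6%) were below 0 on both. The r of MOS was -0.466 with HAS2, -0.701 with TNFAIP6 and -0.738 with VCAN feature 6271. In the turned reading the signs of all these values on slide 3 are opposite. The part of carried-over cumulus RNA in the values of HAS2, TNFAIP6 and VCAN was not tested.

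**Figure D5:**
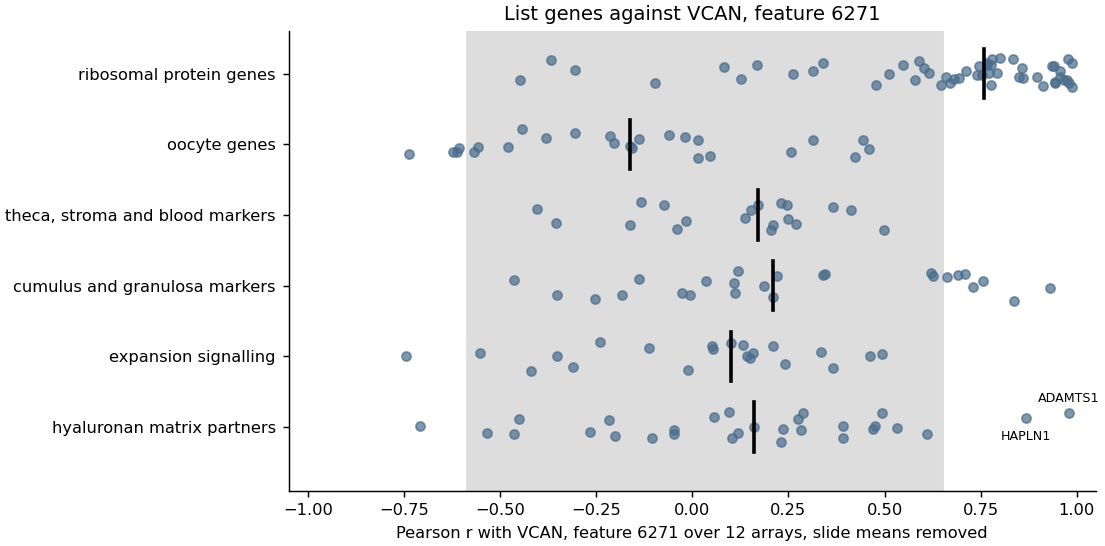
Pearson's r with VCAN feature 6271 over 12 arrays with slide means removed (horizontal axis) for each measured gene of 6 lists (rows); black bars are list medians and the grey band runs from the 5th to the 95th percentile of all genes. The ribosomal list has its median at 0.760 beyond the band, and ADAMTS1 (0.979) and HAPLN1 (0.867) are the matrix partners beyond its upper end.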

How the data were processed

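The authors' deposited log ratios of 12 arrays with 2 colours, 1 value per feature, were used as log2 values. How they were normalized, and in which base and direction, is not given in the sources used here. RNA extraction (PicoPure), amplification with oligo(dT) priming (RiboAmp HS) and dye labelling are stated per the labels' protocols. Intensities were not used here, so no dim or saturated spot was set aside. The design text speaks of 9 biological replicates per condition, 3 to an array, and the pool sizes in the labels (2 for samples, 16 for the reference) do not match this. Neither entered a calculation, nor did the unexplained word Clean, which stands in the titles of 2 LG GDNF arrays (1 and 2).

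Platform symbols were updated through the given RefSeq gene table, and features of a gene were averaged. TNFAIP6 feature 19227 and VCAN feature 6271 were matched there by transcript. VCAN feature 31148 carries no transcript identifier and was matched by its symbol only. HAS2 feature 29675 carries none either and kept the platform symbol as given. limma 3.58.1 in R 4.3.3 fitted 4 groups and slide (6 residual degrees of freedom), with Benjamini-Hochberg adjustment over 11913 genes or 45220 features at 0.05. Relations used exact permutation within slides (13824 orders), adjusted over 30. The scripts were checked on simulated data. Each array's median ratio was near 0 (-0.0106 to 0.0215), and arrays of slide 1 correlated with those of slides 2 and 3 at -0.0664 to 0.603 over features. The members and lists were chosen with earlier results of these data known. Named genes are the members, the 5 genes most like each, the 6 matrix partners and 6 signalling genes with the smallest p for any group difference, 6 set partners where measured, and the 4 cumulus and 4 oocyte genes of widest range.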

Additional observations from a re-analysis of the deposited data

Results flagged for a closer look

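The ratio of VCAN feature 31148 was higher in LG than in SM oocytes on all 3 slides without GDNF and lower on all 3 slides with GDNF, as deposited. The difference between these effects was -1.42 on the log2 scale. It was tested as the interaction in limma and missed the threshold (adjusted p = 0.985 over 45220 features). In the turned reading the value is 0.73.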

How the results depend on the processing

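No gene passed an adjusted p of 0.05 under any alternative fit run, and the members kept their side of the threshold in all of them, with the directions that turned given here. Taking the ratios as Cy5 over Cy3 turned GDNF against control in SM to 0.25 for TNFAIP6, 0.064 for VCAN and 0.077 for feature 6271. It turned GDNF against control in LG to 0.55 for HAS2, 0.86 for TNFAIP6, 0.83 for VCAN, 0.88 for feature 6271 and 0.78 for feature 31148. LG against SM without GDNF became 0.57 for TNFAIP6, 0.041 for feature 6271 and -0.18 for feature 31148. With GDNF it became 0.47, 1.18 and 0.70 for HAS2, TNFAIP6 and VCAN, and 0.85 and 0.56 for the features. The class difference became 0.53, 0.61 and 0.77, and 0.80 and 0.73 for the features. Slides 2 and 3 alone gave LG against SM without GDNF as 0.010 for HAS2 and 0.044 for VCAN, and r of 0.912 and 0.925 for HAS2 with TNFAIP6 and with feature 6271 (adjusted p = 0.0651 and 0.0625). Quantile normalization gave GDNF against control in SM as 0.068 for VCAN and 0.017 for feature 6271. Array weights gave 0.30, 0.13 and 0.13 there for TNFAIP6, VCAN and feature 6271, and 0.020 and 0.11 for HAS2 and VCAN in LG against SM without GDNF. Leaving out LG GDNF 3 and LG control 2, chosen for the fits after seeing the data, gave GDNF against control in LG as 0.11 for TNFAIP6 and 0.14 for feature 6271. It gave LG against SM without GDNF as 0.11 for HAS2 and 0.27 for VCAN, LG against SM with GDNF as 0.075 for feature 6271, and the class difference as 0.18 for TNFAIP6 and 0.27 for feature 6271. Without these arrays r was 0.559 and 0.752 for HAS2 with TNFAIP6 and with feature 6271, and -0.253 between the versican features. With list medians r then became -0.574, -0.577, -0.480 and -0.362 for matrix partners (HAS2, TNFAIP6, features 6271 and 31148). For HAS2, TNFAIP6 and feature 6271 it became -0.257, -0.286 and -0.149 with signalling genes, 0.228, 0.0983 and 0.473 with oocyte genes and -0.153, -0.324 and -0.117 with theca, stroma and blood markers, and it was -0.0529 for TNFAIP6 with cumulus and granulosa markers. Spearman's rho of feature 31148 with matrix partners was -0.0280. With slide and group means removed, r was 0.956 and 0.971 for HAS2 with TNFAIP6 and feature 6271, 0.707 for TNFAIP6 with feature 31148, 0.857 for TNFAIP6 with theca, stroma and blood markers, and -0.0217 and -0.00585 for HAS2 and TNFAIP6 with signalling genes. The shares of variance in the turned reading were computed after seeing the data. The causes were not tested.

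Leaving out 1 array at a time moved GDNF against control in SM between -0.13 and 0.25 for HAS2, -0.51 and 0.66 for TNFAIP6, -0.31 and 0.38 for VCAN, -0.71 and 0.38 for feature 6271, and -0.17 and 0.47 for feature 31148. In LG it ran from -1.07 to 0.50 for TNFAIP6 and from -0.75 to 0.51 for feature 6271. LG against SM without GDNF ran from -0.20 to 0.14 for HAS2 and from -0.30 to 0.40 for VCAN. The class difference ran from -1.12 to 0.57 for TNFAIP6 and from -0.65 to 0.64 for feature 6271. The r ran from 0.715 to 0.954 for HAS2 with TNFAIP6, 0.832 to 0.959 for HAS2 with feature 6271, 0.879 to 0.966 for TNFAIP6 with feature 6271, -0.349 to 0.659 for TNFAIP6 with feature 31148 and -0.457 to 0.528 between the versican features. With matrix partners it ran from -0.269 to 0.605 for HAS2, -0.0351 to 0.573 for feature 6271 and -0.437 to 0.344 for feature 31148. With signalling genes it ran from -0.143 to 0.231 for HAS2, -0.0271 to 0.313 for TNFAIP6 and -0.0823 to 0.288 for feature 6271. For feature 31148 it ran from -0.0115 to 0.618 with cumulus and granulosa markers, -0.0404 to 0.624 with theca, stroma and blood markers and -0.163 to 0.729 with ribosomal protein genes. Without SM GDNF 1 the adjusted p of 6 more relations passed the threshold, as given in the report. Arrays of one pool number had deviations that correlated at -0.502 to 0.575 (median 0.111), and those of different numbers at -0.458 to 0.443 (median -0.0966). Arrays of pool number 1 all lie on slide 1, so number and slide are partly confounded. Whether the numbers pair the arrays could not be settled. A fit with the replicate number as a block in place of slide called 0 genes, as did the fit with slide (332 and 279 genes at an unadjusted p under 0.05 for GDNF against control in SM). A filter on dim spots was not run, since intensities were not used.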
